A study of Mus musculus with 28 samples.

Results

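The genes described here are 10 mouse genes of the MHC class II presentation pathway: the chain genes H2-Aa, H2-Ab1 and H2-Eb1, the invariant chain gene Cd74, the exchange factor genes H2-DMa, H2-Oa and H2-Ob, the transactivator gene Ciita, the ubiquitin ligase gene Marchf1 and the thiol reductase gene Ifi30. They were chosen by name from the 19938 genes that had a probe set carrying a single gene symbol. Earlier results of these data were known when the choice was made. Each of the 10 had 1 such probe set, and each lay above 5 on the log2 scale on all 28 arrays, so all 10 were among the 10452 genes tested. RNA came from primary dendritic cells of the spleen of mice aged 3 months. The wild-type groups came from C57BL6/J mice: 7 arrays after vehicle, 4 after angiotensin II (Ang II), 4 after Ang II with 2-hydroxybenzylamine (2-HOBA, a scavenger of reactive dicarbonyls), and 6 after Ang II with the vasodilator hydralazine and the diuretic hydrochlorothiazide (Hyd/HCTZ). The NOX2 knockout groups, labelled GP91 Phox knockout, were 3 arrays after vehicle and 4 after Ang II. Cybb encodes NOX2, the superoxide-producing core of the NADPH oxidase of phagocytes. The study's stated question was how oxidative stress affects dendritic cell expression. The series' design text has the cells isolated first and treated afterwards, and the sample descriptions speak of treated cells, whereas the title speaks of hypertension and the titles of vehicle samples of sham. These do not settle whether cells or mice received the agents, and dose, duration and sort of the cells were not found in the sources used here. Some knockout titles say Ang I where the descriptions, which were followed, say Ang II.

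Class II molecules present peptides from the endosomal pathway to CD4+ T cells, and dendritic cells are among the cells that carry most of them. An alpha and a beta chain (H2-Aa with H2-Ab1 for I-A, an alpha chain with H2-Eb1 for I-E) assemble with the invariant chain Cd74, which fills the peptide groove and directs the complex to endosomes. There H2-DM (the H2-DMa chain with a beta chain) exchanges the remaining invariant chain fragment for peptide, H2-DO (H2-Oa with H2-Ob) holds H2-DM back, and Ifi30 (GILT) reduces disulphide bonds of the antigen. Ciita is the coactivator that class II promoters depend on. It does not bind DNA itself but docks on the factors of the X box (RFX, with Rfx5, Rfxap and Rfxank) and the Y box (NF-Y). Marchf1 ubiquitinates class II molecules at the surface of immature dendritic cells and B cells and so shortens their stay there.

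The X and Y boxes were looked for in the RefSeq promoter windows of the members (GRCm38.p6, 250 bases before to 50 after a start), because they are the elements through which Ciita acts. The letters searched were GCAAC for the core of the X box and GATTGG for that of the Y box, in this order on one strand with 10 to 40 bases between them, on both strands. Windows were held for 7 of the 10 members, 10 windows in all because H2-DMa and Marchf1 have several starts. The pair was found in the windows of H2-Aa, H2-Eb1, H2-Oa and H2-Ob, which is 4 of 10 windows against 165 of all 32851 windows (0.502%). The letters GATTGG alone were in 6 of the 10 windows and in 16.1% of all windows. Both cores stand in capitals in the 90 bases shown for each of these genes, read on the strand of the gene.
H2-Aa: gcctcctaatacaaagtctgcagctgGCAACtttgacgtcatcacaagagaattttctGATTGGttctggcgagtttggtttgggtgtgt
H2-Eb1: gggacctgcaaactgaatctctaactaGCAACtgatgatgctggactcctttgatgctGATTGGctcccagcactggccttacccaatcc
H2-Oa: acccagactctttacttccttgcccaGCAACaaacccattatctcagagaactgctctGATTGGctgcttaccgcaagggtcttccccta
H2-Ob: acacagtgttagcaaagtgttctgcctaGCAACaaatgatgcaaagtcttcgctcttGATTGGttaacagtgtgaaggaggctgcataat
The stretches lie at chr17:34287841-34287930 (minus strand, H2-Aa), chr17:34305749-34305838 (plus strand, H2-Eb1), chr17:34092277-34092366 (plus strand, H2-Oa) and chr17:34238790-34238879 (plus strand, H2-Ob). Between the cores lie 27 bases in H2-Aa and H2-Oa, 26 in H2-Eb1 and 24 in H2-Ob. No pair was found in the windows of H2-DMa, Ifi30 and Marchf1, which says only that these letters are not in those windows. A match is a description and not a site shown to be bound.

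Values are log2 RMA levels, so a difference of 1 is a 2-fold difference, and levels are compared between groups and not between genes. The labels call the arrays biological replicates, without naming animals or cultures. The first principal component of 998 unnamed control probe sets (30.2% of their variance) was cut at its largest gaps to give 3 array sets. These cuts left wild-type vehicle replicate 2 alone (-25.95 on the component, the next array at -14.39). By rule it was joined to its neighbours in set 1. Set 1 held the 7 knockout arrays with replicates 1 to 3 of wild-type vehicle and the first 2 of Ang II. Set 2 held the other vehicle and Ang II arrays and the 4 of 2-HOBA, and set 3 the 6 Hyd/HCTZ arrays. Hyd/HCTZ and array set therefore cannot be told apart. The median difference of all tested genes was 0.32 for Hyd/HCTZ with Ang II against Ang II, so each such difference is also given relative to that median. The Hyd/HCTZ arrays also had the most widely spread values of all arrays (interquartile range 3.09 to 3.44, the next 3.03). Subtracting the median does not remove a shift that differs between bright and dim genes. The array labelled wild-type vehicle replicate 2 stood apart, with a mean correlation to the other arrays of 0.852 and a Cybb level of 6.34. The knockout arrays had Cybb at 6.41 to 7.18 and the other wild-type vehicle arrays at 8.51 to 9.57. Vehicle replicate 2 also had the least spread values of all arrays (interquartile range 1.92, the next 2.43). Whether its label is wrong was not tested, and the wild-type results against vehicle are given with and without it.

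With Hyd/HCTZ, Ifi30, H2-DMa, H2-Oa, H2-Eb1 and H2-Aa rose against Ang II alone by 0.91 to 2.12 on the log2 scale, and Marchf1 fell by 0.35. These 6 genes passed limma's test (adjusted p below 0.05 over all tested genes) both as deposited and relative to the median difference. On the deposited scale 8 of the 10 members were called higher and 1 lower, where 40.8% of all tested genes were called higher and 11.9% lower. Relative to the median difference 5 were called higher and 1 lower, where 23.7% of all genes were called higher and 25% lower. H2-Ab1, Cd74, H2-Ob and Ciita did not pass the relative test. The arrays of both groups did not overlap for 7 members that were higher, as for 34.4% of all tested genes. In bulk RNA such as this, fewer cells of a type and less RNA per cell cannot be told apart.

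**Figure D1:**
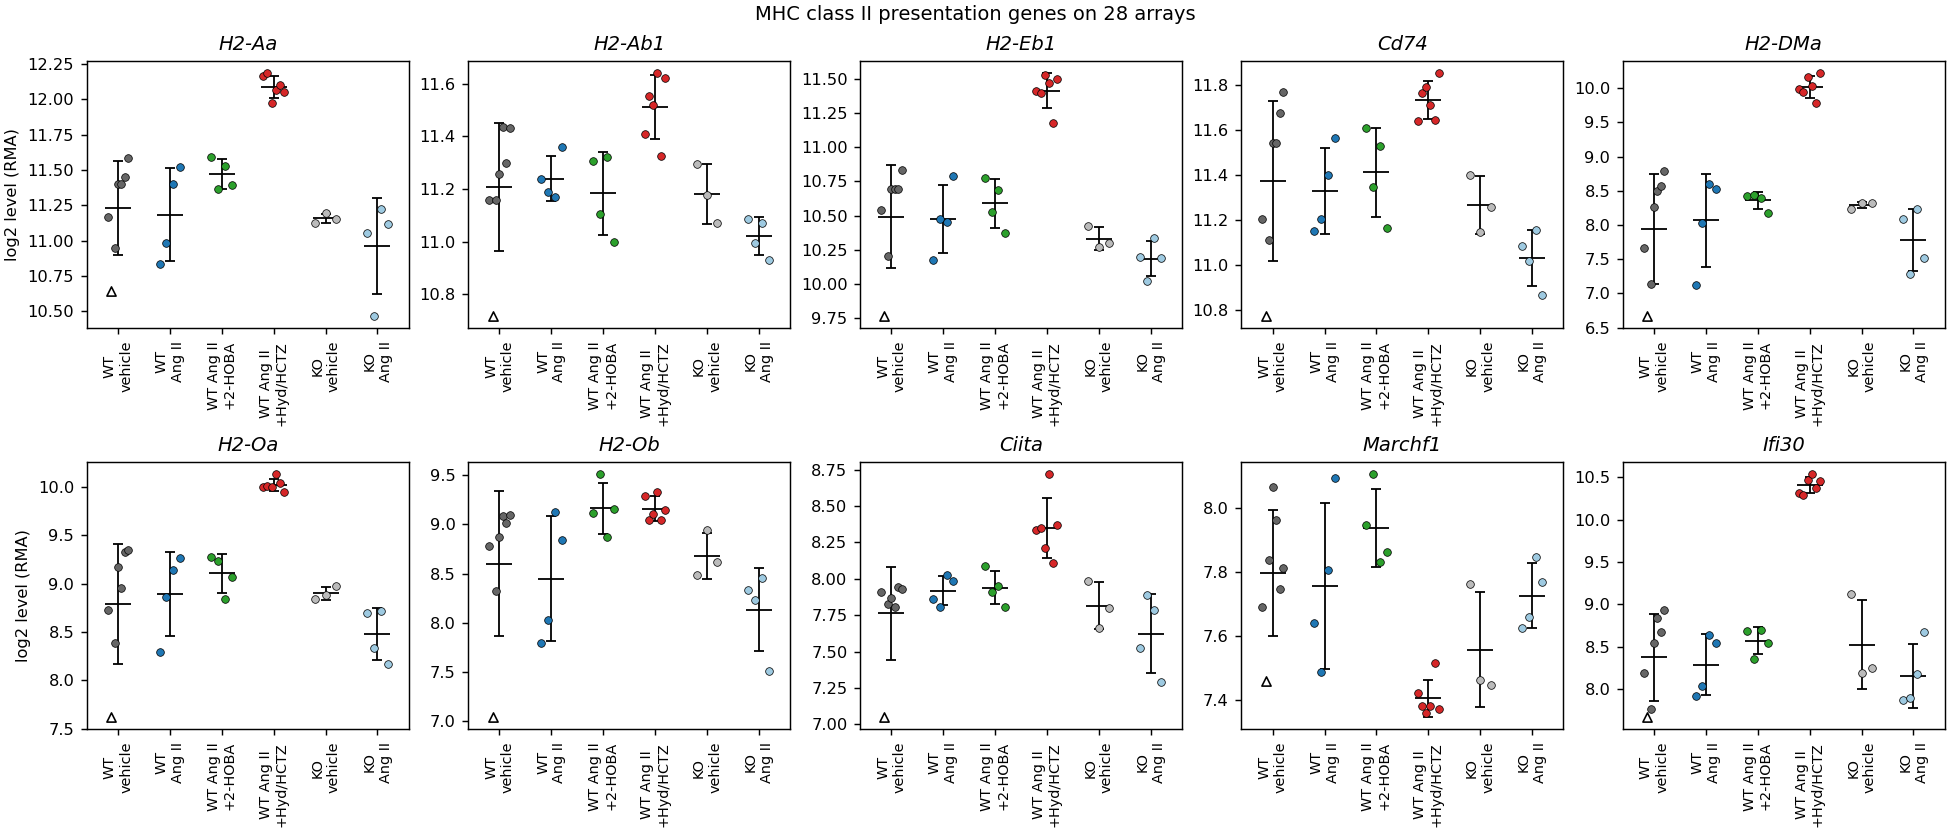
Log2 RMA level (vertical axes) of each of the 10 genes on the 28 arrays by group, with 1 point per array, a bar at the mean and whiskers of 1 SD; WT is wild type, KO the NOX2 knockout, and the open triangle is the array labelled wild-type vehicle replicate 2. The 6 Hyd/HCTZ arrays lie above all 22 other arrays for H2-Aa, H2-Eb1, H2-DMa, H2-Oa, Ciita and Ifi30, and among the lowest for Marchf1.

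Of the chains, H2-Aa lay at 10.83, 10.99, 11.40 and 11.52 on the 4 Ang II arrays and between 11.98 and 12.19 (median 12.08) on the 6 Hyd/HCTZ arrays. The Hyd/HCTZ arrays were above each of the 22 other arrays, of which the highest reached 11.59. The difference was 0.91 (SE 0.17, limma adjusted p = 8.73e-05) as deposited and 0.59 (adjusted p = 0.00621) relative to the median difference. In the other groups vehicle arrays ran from 10.64 to 11.59 (median 11.40), 2-HOBA arrays were at 11.59, 11.37, 11.53 and 11.40, knockout vehicle arrays at 11.13, 11.19 and 11.15, and knockout Ang II arrays at 11.05, 10.47, 11.22 and 11.12. The 2-HOBA arrays thus lay above all 7 knockout arrays and overlapped the vehicle and Ang II arrays of the wild type.

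H2-Ab1, the beta chain that pairs with H2-Aa, was nearly level over the groups. It lay at 11.24, 11.19, 11.17 and 11.36 on the Ang II arrays and between 11.32 and 11.64 (median 11.54) on the Hyd/HCTZ arrays, so that these groups overlapped. Its difference of 0.27 (95% interval from -0.0022 to 0.55, adjusted p = 0.0883) did not pass the test, and relative to the median difference it was -0.05 (adjusted p = 0.799). With every array set to a common median, which raised the median difference of all genes to 0.43, it was 0.38 and passed (adjusted p = 0.0291). The group means of H2-Ab1 spanned 11.02 to 11.51, and vehicle arrays ran from 10.72 to 11.43 (median 11.26).

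The paired chains were also set against each other within each array, where any shift common to an array cancels. The pairs were chosen after the values were seen, so these values are a description with no test. The level of H2-Aa minus that of H2-Ab1 ran from -0.41 to 0.23 on the Ang II arrays (mean -0.05), from 0.21 to 0.40 on the 2-HOBA arrays (mean 0.29) and from 0.43 to 0.77 on the Hyd/HCTZ arrays (mean 0.58). Vehicle arrays ran from -0.21 to 0.16 (mean 0.02). The mean with Hyd/HCTZ was thus 0.63 above that with Ang II, 0.29 above that with 2-HOBA and 0.56 above that with vehicle, or 0.54 without the array labelled vehicle replicate 2. These are changes of a ratio and not levels of one gene set against the other.

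H2-Eb1, the I-E beta chain, followed H2-Aa. It was at 10.18, 10.47, 10.45 and 10.79 with Ang II and between 11.18 and 11.53 (median 11.44) with Hyd/HCTZ, again above all 22 other arrays, of which the highest was at 10.83. It rose by 0.94 (SE 0.17, limma adjusted p = 3.71e-05), or 0.63 relative to the median difference (adjusted p = 0.00304). In the other groups it ran from 9.77 to 10.83 with vehicle (median 10.69), from 10.37 to 10.77 with 2-HOBA, from 10.27 to 10.43 in knockout vehicle and from 10.02 to 10.34 in knockout Ang II arrays. These are transcript levels, and whether I-E molecules were formed was not measured. H2-Ea, the gene of the I-E alpha chain that pairs with H2-Eb1, lay below 5 on all 28 arrays (group means 3.41 to 4.02). It was not tested, and the rise of H2-Eb1 is no measure of I-E. Of the other class II genes, H2-DMb1 and H2-DMb2 had no probe set of their own. H2-Eb2 was 0.77 higher with Hyd/HCTZ (adjusted p = 0.0337) but 0.45 relative to the median difference (adjusted p = 0.222).

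Cd74, the invariant chain, was at 11.15, 11.21, 11.40 and 11.57 with Ang II and between 11.64 and 11.85 (median 11.74) with Hyd/HCTZ. These groups did not overlap, but the highest vehicle array, at 11.77, lay within the Hyd/HCTZ range. The difference was 0.40 (SE 0.16, adjusted p = 0.0344) and 0.09 relative to the median difference (adjusted p = 0.677). Leaving out Ang II replicate 1 or 2, or Hyd/HCTZ replicate 2, 3 or 6, ended the call on the deposited scale, with adjusted p values up to 0.110 for Cd74.

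Of the exchange factors, H2-DMa changed most. It was at 7.13, 8.02, 8.60 and 8.53 with Ang II and between 9.78 and 10.22 (median 10.01) with Hyd/HCTZ, and the highest of the 22 other arrays reached 8.80. It rose by 1.95 (SE 0.31, limma adjusted p = 8.15e-06), or 1.64 relative to the median difference (adjusted p = 0.000104). Spread among the other groups was wide: vehicle arrays ran from 6.67 to 8.80 (median 8.27), and vehicle replicates 1 to 3, the arrays of set 1, were at 7.67, 6.67 and 7.13 where the vehicle arrays of set 2 began at 8.27. The 2-HOBA arrays (8.42, 8.44, 8.39 and 8.18) and the knockout vehicle arrays (8.24, 8.32 and 8.32) were close to each other.

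The chains of H2-DO, the inhibitor of H2-DM, did not move alike. H2-Oa was at 8.30, 8.86, 9.14 and 9.27 with Ang II and between 9.95 and 10.13 (median 10.01) with Hyd/HCTZ, above all 22 other arrays (highest 9.35), and rose by 1.13 (SE 0.24, adjusted p = 0.000246), or 0.81 relative to the median difference (adjusted p = 0.00571). H2-Ob was at 7.80, 8.03, 9.13 and 8.84 with Ang II and between 9.04 and 9.33 (median 9.12) with Hyd/HCTZ. These groups overlapped. Its difference of 0.71 (SE 0.29, adjusted p = 0.0434) was 0.39 relative to the median difference (adjusted p = 0.276), and its call on the deposited scale ended when Ang II replicate 1 or 2, or any single Hyd/HCTZ array, was left out. Against the 2-HOBA arrays (9.11, 9.51, 8.87 and 9.16) H2-Ob differed by -0.0009 as deposited.

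Within arrays, again for pairs chosen after their values were seen and with no test, H2-DMa minus H2-Ob ran from -0.67 to -0.0038 with Ang II and from 0.69 to 1.07 with Hyd/HCTZ. Its mean was 1.24 higher with Hyd/HCTZ than with Ang II, 1.66 higher than with 2-HOBA and 1.52 higher than with vehicle (1.57 without vehicle replicate 2). H2-Oa minus H2-Ob, the chains of one heterodimer, ran from 0.01 to 0.83 with Ang II and from 0.71 to 1.00 with Hyd/HCTZ, and these arrays overlapped. Its mean was 0.42 higher than with Ang II (0.28 without Ang II replicate 3), 0.92 higher than with 2-HOBA and 0.67 higher than with vehicle (0.74 without vehicle replicate 2).

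**Figure D2:**
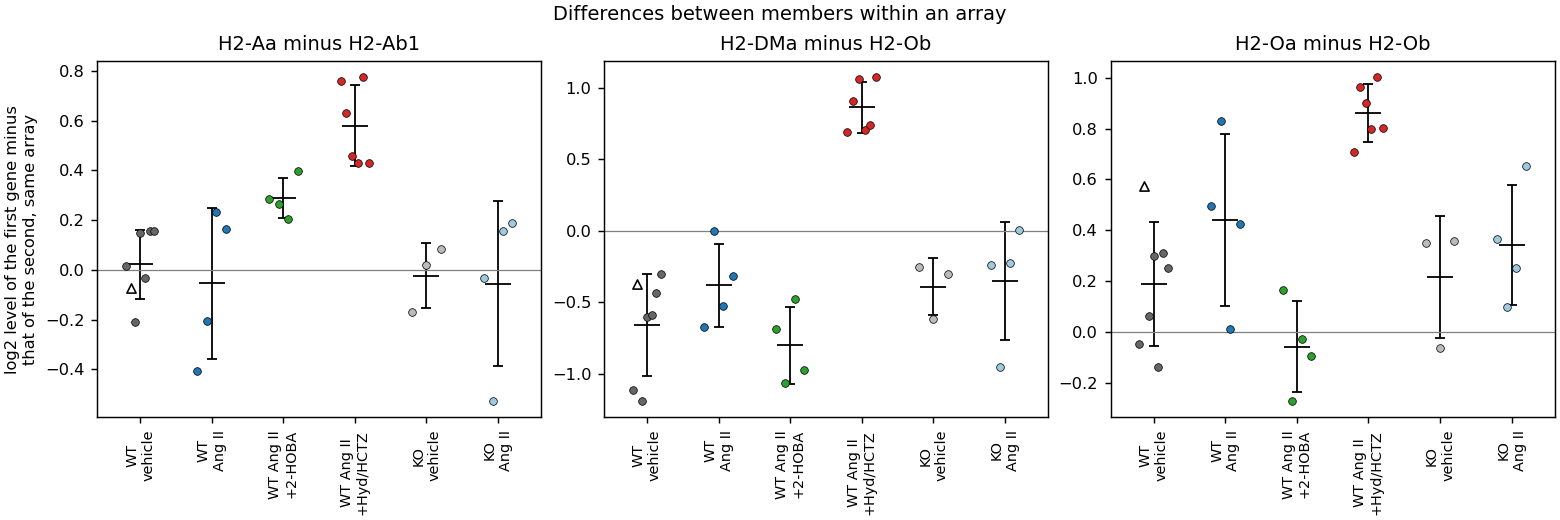
Log2 level of one gene minus that of another on the same array (vertical axes) for 3 pairs, by group, with 1 point per array, a bar at the mean and whiskers of 1 SD; the open triangle is the array labelled wild-type vehicle replicate 2. For H2-Aa minus H2-Ab1 and for H2-DMa minus H2-Ob the 6 Hyd/HCTZ arrays lie above every other array, while for H2-Oa minus H2-Ob they overlap 1 Ang II array.

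Ciita, the transactivator, was at 7.86, 7.81, 8.02 and 7.98 with Ang II and between 8.11 and 8.72 (median 8.34) with Hyd/HCTZ, and the highest other array reached 8.09. The groups thus separated, but by little: the difference was 0.43 (SE 0.16, adjusted p = 0.0276), 0.11 relative to the median difference (adjusted p = 0.591), and after quantile normalization -0.07 (adjusted p = 0.713). Leaving out Ang II replicate 1 or 2, or Hyd/HCTZ replicate 4, also ended the call on the deposited scale. In the other groups Ciita ran from 7.05 to 7.94 with vehicle (median 7.87), 7.81 to 8.09 with 2-HOBA, 7.66 to 7.99 in knockout vehicle and 7.29 to 7.89 in knockout Ang II arrays.

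Marchf1, the ligase that removes class II molecules from the surface, moved the other way. It was at 7.64, 7.49, 7.81 and 8.09 with Ang II and between 7.36 and 7.51 (median 7.38) with Hyd/HCTZ, and 18 of the 22 other arrays lay above every Hyd/HCTZ array. It fell by 0.35 (SE 0.14, limma adjusted p = 0.0300), by 0.67 relative to the median difference (adjusted p = 0.000211) and by 0.81 after quantile normalization (adjusted p = 8.60e-06). On the deposited scale leaving out Ang II replicate 3 or 4, or Hyd/HCTZ replicate 3, ended the call, with differences from -0.44 to -0.24 over the arrays left out, and with a common array median (-0.24, adjusted p = 0.162). Vehicle arrays ran from 7.46 to 8.07 (median 7.81). Knockout vehicle arrays were at 7.76, 7.46 and 7.45, knockout Ang II arrays at 7.63, 7.66, 7.85 and 7.77, and 2-HOBA arrays at 7.95, 8.10, 7.83 and 7.86.

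Ifi30, the lysosomal thiol reductase, had the largest difference of the 10 genes against Ang II. It was at 7.92, 8.04, 8.64 and 8.55 with Ang II and between 10.29 and 10.53 (median 10.42) with Hyd/HCTZ, while the highest of the other arrays was a knockout vehicle array at 9.13. It rose by 2.12 (SE 0.23, limma adjusted p = 3.27e-08), a 4.34-fold difference, and by 1.80 relative to the median difference (adjusted p = 6.29e-07). Vehicle arrays ran from 7.67 to 8.93 (median 8.55), 2-HOBA arrays from 8.36 to 8.69 and knockout Ang II arrays from 7.87 to 8.68.

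**Figure D3:**
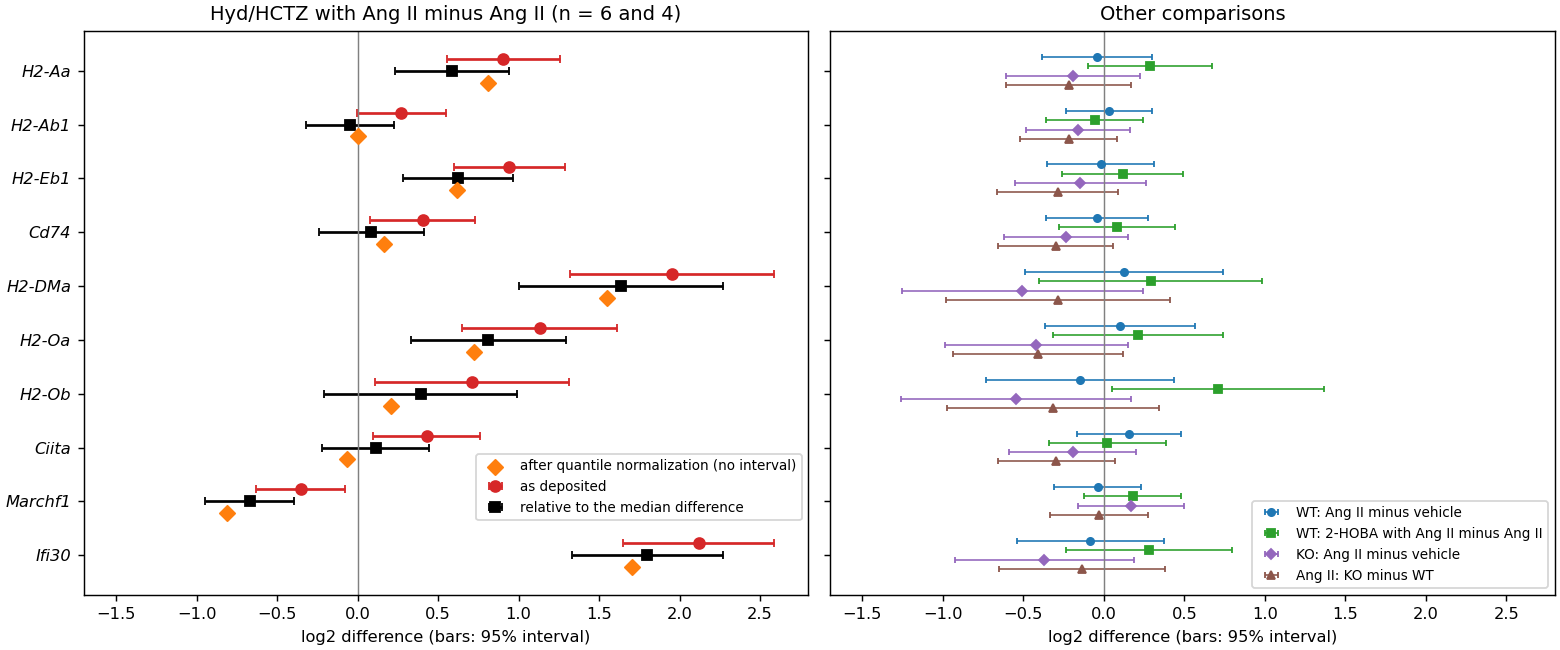
Log2 difference (horizontal axes) of each gene with its 95% interval from limma: left, Hyd/HCTZ with Ang II minus Ang II as deposited, relative to the median difference of all tested genes, and after quantile normalization; right, 4 comparisons without Hyd/HCTZ. The quantile-normalized values have no interval. On the left Ifi30 and H2-DMa lie farthest from 0. The intervals of H2-Ab1 include 0, as do the relative intervals of Cd74, H2-Ob and Ciita. On the right every interval but that of H2-Ob with 2-HOBA includes 0.

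The same genes led against the other wild-type groups, which share the Hyd/HCTZ arrays with the comparison above and are no independent repeat of it. Against 2-HOBA with Ang II, 7 members were called higher and 1 lower (background 36% and 9.72%), and relative to the median difference of 0.25 these were 4 and 1 (background 23.2% and 21.1%): Ifi30 (1.58), H2-DMa (1.41), H2-Oa (0.67) and H2-Eb1 (0.58) higher and Marchf1 (-0.78) lower. H2-Aa was 0.37 higher on that scale (adjusted p = 0.0821). Against vehicle, 8 were called higher and 1 lower (background 43.4% and 13.2%), and relative to the median difference of 0.31 these were 5 and 1 (background 25.3% and 27%): Ifi30 (1.72), H2-DMa (1.77), H2-Oa (0.92), H2-Eb1 (0.61) and H2-Aa (0.55) higher and Marchf1 (-0.70) lower. Without the array labelled vehicle replicate 2 these 6 relative differences were 1.71, 1.66, 0.83, 0.60, 0.56 and -0.66, and each stayed past the threshold. On the deposited scale 6 members were then called higher and 1 lower, since H2-Ab1 (0.22, adjusted p = 0.0543) and Cd74 (0.26, adjusted p = 0.0635) no longer passed.

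The other genes of class II regulation and processing were taken from lists. Over all tested genes, the shares called were 40.8% higher and 11.9% lower on the deposited scale and 23.7% and 25% on the relative scale, and each list's counts are to be read against these. Of 11 class II transcription factors, 10 were called higher with Hyd/HCTZ than with Ang II and 0 lower on the deposited scale, and 5 higher and 1 lower relative to the median difference (list median 0.44 on that scale). The 4 with the smallest p passed on both scales. They were Spi1 (PU.1, a myeloid factor), at 9.70 ± 0.12 (SD, n = 6) against 8.23 ± 0.12 (SD, n = 4), a difference of 1.47 and 1.16 relative to the median, Nfya (a subunit of NF-Y, 0.76 and 0.44), Prdm1 (a repressor of Ciita, 0.88 and 0.56) and Irf8 (needed for cDC1 and also on the cDC1 marker list, 0.76 and 0.44). The Ang II arrays of Prdm1 averaged 4.44, below the level used as a floor. Within RFX, Rfxap differed by 0.80 and 0.48 relative to the median (adjusted p = 0.0286), whereas Rfx5, its DNA-binding subunit, differed by -0.31 as deposited (adjusted p = 0.217) and by -0.63 relative to the median (adjusted p = 0.0157).

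Of 9 antigen processing genes, 8 were called higher and 0 lower, and 6 and 0 relative to the median difference (list median 0.89). Cst3 (cystatin C, a cathepsin inhibitor) was at 11.92 ± 0.15 (SD, n = 6) with Hyd/HCTZ and 9.97 ± 0.56 (SD, n = 4) with Ang II, a difference of 1.95, or 1.63 relative to the median. The cathepsin genes Ctsh and Ctsz and the inhibitor gene Cst7 differed by 1.21, 1.24 and 1.03, or 0.89, 0.93 and 0.71 relative to the median. Ctss, the cathepsin known for trimming the invariant chain in dendritic cells, was 0.78 higher (adjusted p = 0.0277) but 0.46 relative to the median (adjusted p = 0.197).

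Of 8 traffic genes tested, 5 were called higher and 1 lower, and 3 and 2 relative to the median difference (list median 0.36), where 25% of all genes were called lower on the latter scale. Cd83, which counters Marchf1 and so keeps class II molecules at the surface, lay between 10.55 and 11.13 (median 10.89) with Hyd/HCTZ and at 7.84, 8.47, 8.72 and 9.10 with Ang II. It rose by 2.32 (SE 0.24, limma adjusted p = 1.96e-08), or 2.00 relative to the median. The tetraspanin genes differed in direction: Cd9 rose by 2.00 and Cd63 by 1.41 (1.68 and 1.09 relative to the median), and Cd37 fell by 1.16 (1.48 relative to the median). Of 13 class I genes tested, 6 were called higher and 0 lower, and 4 and 1 relative to the median difference (list median 0.29), where 40.8% and 23.7% of all genes were called higher. The 4 were the immunoproteasome genes Psmb9, Psmb10 and Psmb8 (1.62, 1.04 and 0.83 relative to the median) and Tapbpl (0.60), while Nlrc5, the class I counterpart of Ciita, was lower on that scale (-0.64, adjusted p = 0.0061) and not called as deposited (-0.32, adjusted p = 0.152).

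**Figure D4:**
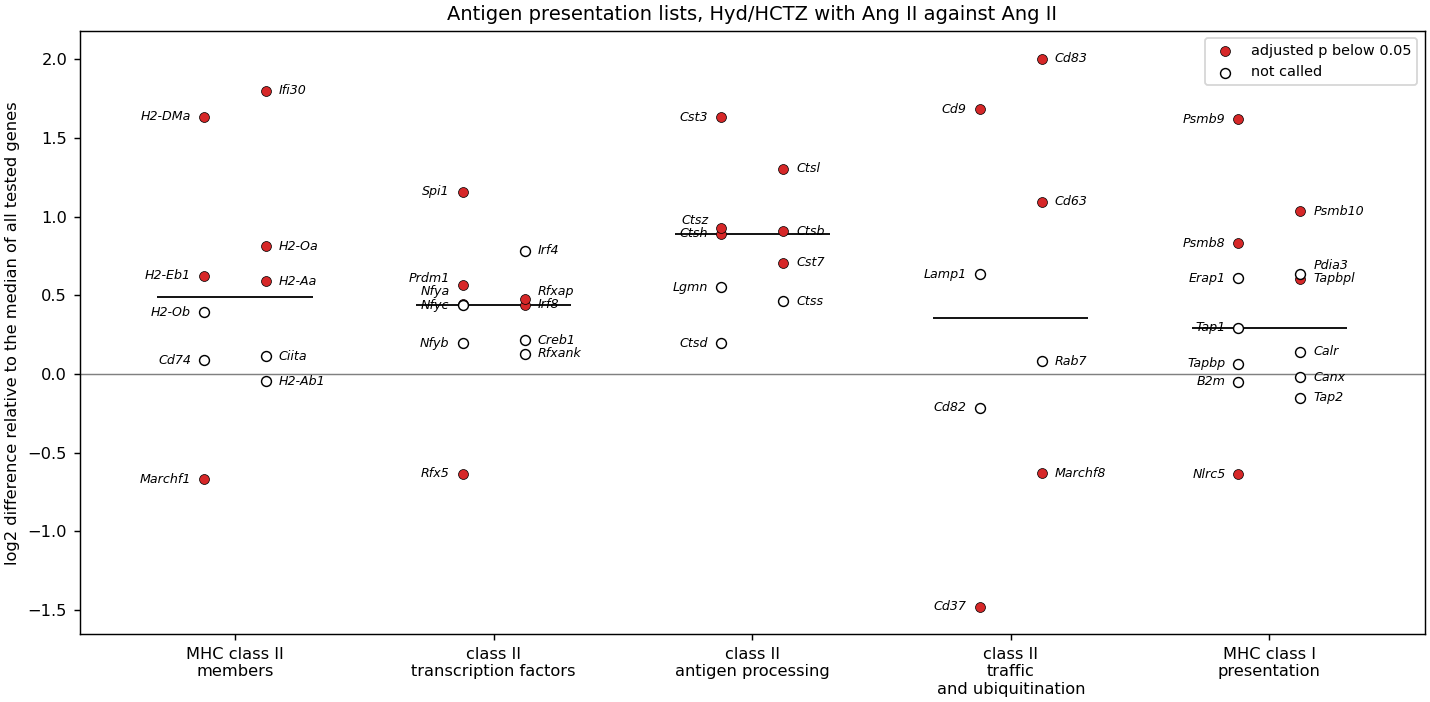
Log2 difference of Hyd/HCTZ with Ang II against Ang II alone, relative to the median of all tested genes (vertical axis), for the 10 members and the tested genes of 4 other antigen presentation lists; filled points passed limma's test on this scale, open points did not, and bars are list medians; the points of Nfya (called) and Nfyc (not called) coincide. Cd83, Ifi30, H2-DMa, Cd9, Cst3 and Psmb9 lie above 1.5, and Cd37 is lowest.

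Cell type markers moved with these results. Their counts are to be read against all tested genes, of which 40.8% were called higher and 11.9% lower as deposited. Relative to the median difference these shares were 23.7% and 25%. The B cell list averaged 8.23 (7.81 to 8.79) on the Ang II arrays and 6.53 (5.98 to 7.08) on the Hyd/HCTZ arrays, with 11 of its 13 tested genes called lower on both scales and 0 higher. Its brightest gene, Cd79b, went from 9.61 ± 0.71 (SD, n = 4) to 8.28 ± 0.49 (SD, n = 6). The list of genes shared by dendritic cells rose from 7.56 (7.42 to 7.81) to 8.73 (8.61 to 8.81), with 5 of 5 called higher on both scales. So did 8 of 8 cDC1 genes, and of cDC2 genes 6 of 7 were called higher and 1 lower (3 and 1 relative to the median difference). Of the red pulp macrophage list 10 of 10 were called higher (6 relative to the median), its mean being 7.21 (6.88 to 7.90) with Ang II and 8.66 (7.85 to 9.31) with Hyd/HCTZ. Of 6 plasmacytoid dendritic cell genes 4, and of 4 monocyte genes 3, were called higher on both scales, while all 7 erythroid genes, 3 of 7 T and NK cell genes and 3 of 5 neutrophil genes were called lower on both. The part of these marker shifts in the differences of the class II genes was not tested. Defining dendritic cell markers were present in every group: Itgax averaged 8.07 to 9.59 and Flt3 7.84 to 9.31 over the groups, beside Cd79b at 8.28 to 10.34, so B cell transcripts were present in every group as well.

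**Figure D5:**
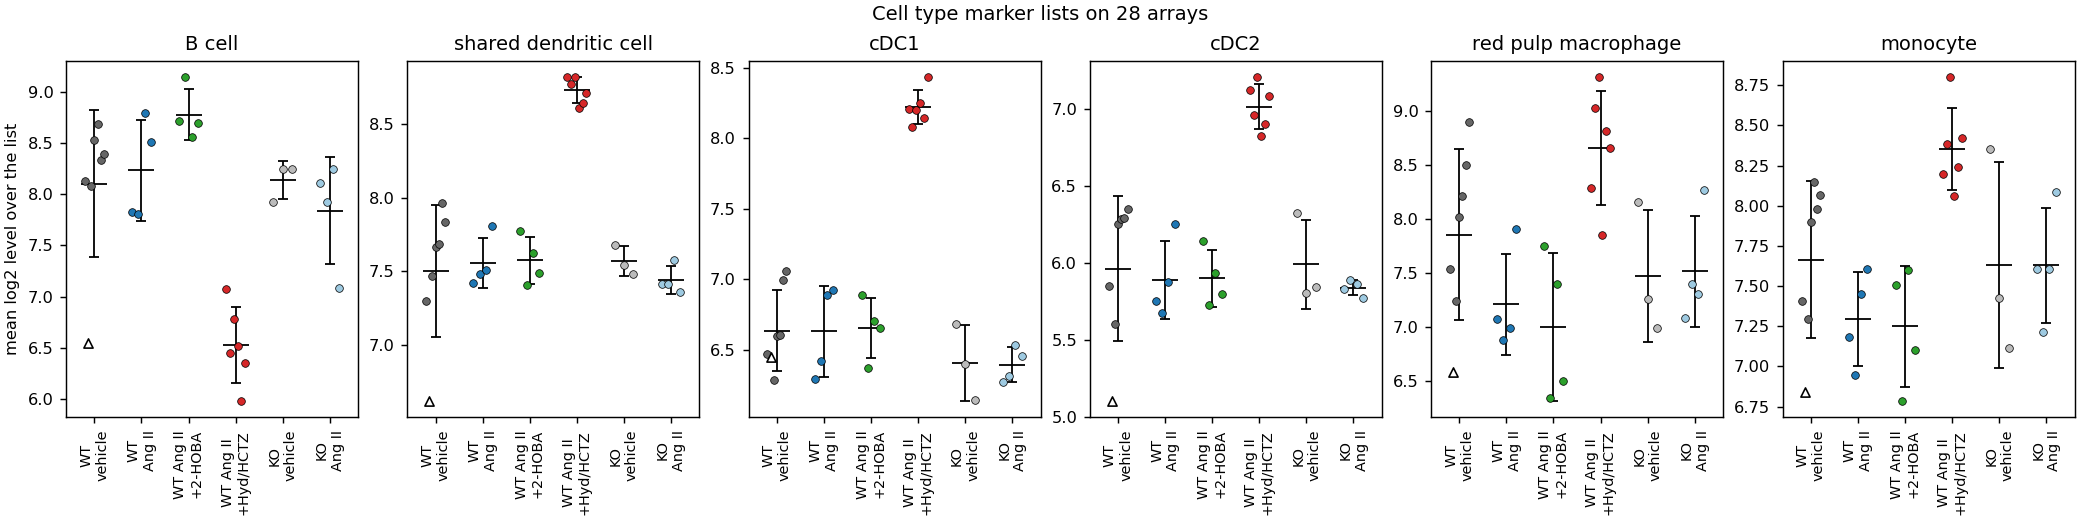
Mean log2 level over the genes of each cell type marker list (vertical axes) on the 28 arrays by group, with 1 point per array, a bar at the mean and whiskers of 1 SD; the open triangle is the array labelled wild-type vehicle replicate 2. The 6 Hyd/HCTZ arrays are above every other array for the shared dendritic cell, cDC1 and cDC2 lists, and their mean is the lowest of the 6 groups for the B cell list.

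How each member followed the B cell list from array to array within groups was then described, a relation also chosen after the values were seen, with 20 relations computed (10 members against 2 lists). Arrays were permuted within groups but not within array sets, so the p-values do not allow for set differences and are a description. H2-Ob, which B cells express, followed the B cell list most closely, with Pearson's r = 0.92 (permutation p = 1e-05, the smallest possible with the resamples drawn, adjusted 0.0002) and Spearman's rho = 0.86 over 28 arrays after each group's mean was subtracted. Of all tested genes 0.0766% had a higher r with that list, whose median r with all genes was 0.35. The relation was r = 0.82 without the 2 arrays farthest from the median, and within array sets 1, 2 and 3 it was 0.96, 0.80 and 0.57. With the means of group and set both subtracted it was 0.87 over all arrays. Ifi30 lay at the middle of all genes (r = 0.34, permutation p = 0.184, rho = 0.25, 50.5% of genes higher). For 7 other members (H2-Aa, H2-Ab1, H2-Eb1, Cd74, H2-DMa, H2-Oa and Ciita) the pooled r with the B cell list ran from 0.58 to 0.79. It did not hold within set 2, where it ran from -0.66 (H2-Aa) to -0.01 (H2-DMa and H2-Oa). Within set 1 it ran from 0.37 (H2-Aa) to 0.85 (H2-Oa), and within set 3 from -0.15 (H2-Oa) to 0.61 (H2-Eb1). With the means of group and set both subtracted it ran from 0.23 (H2-Aa) to 0.64 (H2-Oa). For Marchf1 it was 0.53 pooled, and 0.34, 0.47 and -0.50 within the sets. With the shared dendritic cell list Cd74 had the highest r of the members (0.89, permutation p = 2e-05, adjusted 0.0002, rho = 0.86, and 0.83 without the 2 farthest arrays), and within the sets it was 0.83, 0.78 and 0.18. The median r of all genes with this list was 0.47, and 1.39% of genes had a higher r than Cd74. Between Ang II and Hyd/HCTZ the directions differed: H2-Ob was 0.71 higher with Hyd/HCTZ, where the median difference of the B cell list was -1.64.

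Among themselves, after group means were subtracted, the members correlated positively over the 28 arrays, with r from 0.37 (H2-Aa with Ciita) to 0.92 (H2-DMa with H2-Oa). Without the array labelled vehicle replicate 2 the range was -0.01 to 0.89 for the same pairs. The 5 genes outside the members whose within-group pattern was most like that of H2-Aa were Atp5g2 (r = 0.91), Selenoh (0.90), Eif3k (0.89), Rps7 (0.89) and Sptssa (0.89). For Ciita they were Ddx39b (0.88), Carmil1 (0.87), Baz2b (0.84), Ahcyl1 (0.84) and Trim12a (0.84), which fell to between 0.63 and 0.75 without that array. For Marchf1 they were Maml2 (0.88), Gpd2 (0.82), Srsf11 (0.81), AI504432 (0.80) and Larp4 (0.80). The wild-type vehicle and Ang II groups were spread over more than one array set, so subtracting group means leaves set differences in these correlations. The values are a description.

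Ang II alone gave no called member in wild-type cells, and 0 of 10452 genes were called (266 had an unadjusted p below 0.05 in limma, and the alternatives run also called none). The 10 differences from vehicle ran from -0.15 (H2-Ob, 95% interval -0.73 to 0.43) to 0.16 (Ciita, -0.17 to 0.48). Without the array labelled vehicle replicate 2 they ran from -0.41 (H2-Ob) to 0.04 (Ciita), 9 of 10 being lower. Within array set 1, which holds the array labelled vehicle replicate 2, they ran from -0.13 to 0.42. Within set 2 they ran from -0.15 to 0.12. H2-Ab1 was among the most precisely measured, at 0.03 (-0.23 to 0.30), and H2-DMa the least, at 0.13 (-0.49 to 0.74).

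With 2-HOBA added to Ang II, 0 members and 0 of all genes were called (379 genes had an unadjusted p below 0.05). H2-Ob alone of the members was among those, at 0.71 higher (95% interval 0.05 to 1.37, limma adjusted p = 0.977). Higher values stood on all 4 of its 2-HOBA arrays than on Ang II replicates 1 and 2, which belong to the other array set. With array set as a block its difference was 0.21, and within set 2 it was 0.17. The B cell list was higher on the 2-HOBA arrays as well, at 8.78 (8.56 to 9.14), with 13 of 13 genes higher, a median of 0.50 and 0 called. This list too was low on Ang II replicates 1 and 2 (7.83 and 7.81). On Ang II replicates 3 and 4, of set 2 like the 2-HOBA arrays, it was at 8.79 and 8.51. The other members differed by -0.06 (H2-Ab1) to 0.29 (H2-DMa), and within set 2 by -0.20 to 0.01.

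In NOX2 knockout cells, Cybb averaged 6.82 with vehicle and 6.71 with Ang II, against 8.74 and 8.77 in wild type. Ang II against vehicle in the knockout gave 0 called members, and 0 genes were called in all (296 had an unadjusted p below 0.05). Of the 10 members 9 were lower and Marchf1 was 0.17 higher. The differences were most negative for H2-Ob (-0.55, 95% interval -1.26 to 0.17), H2-DMa (-0.51, -1.25 to 0.24) and H2-Oa (-0.42, -0.99 to 0.15). H2-Oa lay at 8.84, 8.88 and 8.98 with vehicle and at 8.70, 8.34, 8.71 and 8.17 with Ang II, and H2-Ob at 8.49, 8.94 and 8.62 against 8.33, 8.24, 8.46 and 7.52. The arrays of these 2 members did not overlap, as for 2.58% of all tested genes in that direction. All 7 knockout arrays belong to set 1, and the B cell list was lower on the Ang II arrays too (8.14 to 7.84, 12 of 13 genes lower, 0 called). That list was at 7.93, 8.25 and 8.25 with vehicle and at 8.11, 7.92, 8.25 and 7.08 with Ang II. Ang II replicate 4 thus carried most of the drop.

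Under Ang II all 10 members averaged lower in the knockout than in wild type, by 0.03 (Marchf1) to 0.41 (H2-Oa), and 0 were called (5 of all genes, 0.0478%, and 714 with an unadjusted p below 0.05). H2-Ab1 lay at 11.09, 10.99, 11.07 and 10.93 in the knockout, below the lowest wild-type array at 11.17, a separation seen for 1.94% of genes in that direction. Within array set 1, where only Ang II replicates 1 and 2 of the wild type remain, the differences ran from -0.21 (Ciita) to 0.22 (H2-Ob), and H2-DMa was 0.21 higher instead of 0.28 lower. With vehicle, 0 members were called (1 of all genes, 0.00957%, and 657 with an unadjusted p below 0.05), and differences ran from -0.24 (Marchf1) to 0.35 (H2-DMa, 95% interval -0.33 to 1.02). With array set as a block the H2-DMa difference was 1.05 (adjusted p = 0.0787), the smallest adjusted p of any member there, and within set 1, which holds the array labelled vehicle replicate 2, it was 1.13. Without the array labelled vehicle replicate 2 the differences over both sets ran from -0.30 (Marchf1) to 0.13 (H2-DMa), with H2-Oa at -0.09 and H2-Ob at -0.18 where they were 0.11 and 0.08 with it. Without knockout vehicle replicate 1 Ifi30 was at -0.15 where it was 0.15 with it. The interaction of genotype and Ang II gave 0 called members and 0 called genes (257 with an unadjusted p below 0.05), and its 95% intervals for the members were wide, for H2-DMa (-0.63) from -1.60 to 0.34. Without the array labelled vehicle replicate 2 the interaction values ran from -0.42 (H2-DMa) to 0.26 (Marchf1).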

How the data were processed

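RNA of 28 samples was measured on 1-colour Affymetrix mouse arrays. The authors deposited log2 values, 1 per probe set and array (35556 probe sets), made with Partek 6.6 and RMA per the submitters' processing notes. The sources used here give neither the RMA settings nor the probe annotation version. RMA compresses large differences, and precision is limited by how many arrays each group has. Detection calls were not used here.

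Names came from the platform annotation held by GEO, which gave 1 symbol to 21789 probe sets. Where a gene had several, the one with the highest mean was used, and 10452 of 19938 genes passed the filter for testing (a level over 5 on 3 or more arrays). A fit of 6 group means over all 28 arrays was made with limma 3.58.1 (R 4.3.3, eBayes), with two-sided tests and Benjamini-Hochberg adjustment within a comparison at 0.05; it was tested on simulated data. "Relative" differences have the median difference of all tested genes subtracted. Correlations used 100000 permutations of arrays within groups (scipy 1.17.1). Alternatives were the filter, scaling between arrays, the arrays in the fit, array set or replicate number as a block, each array left out, and a 1.5-fold minimum.

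The named genes were the 10 members, Cybb, the brightest marker genes, the 5 genes most like H2-Aa, Ciita and Marchf1, and up to 4 called genes per list with the smallest p; others named from the lists were chosen after their values were seen. The members and lists were chosen with earlier results of these data known. Promoter sequences are RefSeq's (GRCm38.p6). Replicate numbers were not used to pair the samples in the main fit. Whether arrays of a group came from separate animals is not stated beyond the words biological replicate, so p-values measure the spread between these samples.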

Additional observations from a re-analysis of the deposited data

Results flagged for a closer look

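Of 50 member-by-group sets of 4 or more arrays, 4 held an array far from the others of its group by Dixon's criterion, where chance gives about 1 in 20. The array labelled wild-type vehicle replicate 2 was the low one for Ciita (7.05, the next at 7.81), H2-Ob (7.04, the next at 8.32) and H2-Ab1 (10.72, the next at 11.16). Hyd/HCTZ replicate 5 was the low one for H2-Eb1 (11.18, the next at 11.40).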

How the results depend on the processing

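Differences of Ifi30, H2-DMa, H2-Oa and H2-Eb1 with Hyd/HCTZ kept their direction and call against Ang II, 2-HOBA and vehicle under each of the 19, 19 and 23 alternatives run; H2-Aa did so against Ang II and vehicle. Called members against Ang II numbered 9, 6 to 9 under other settings and 6 to 8 with 1 array left out; against 2-HOBA 8, 5 to 9 and 6 to 8, with 5 both relative to the median difference and with a 1.5-fold minimum; against vehicle 9, 6 to 10 and 7 to 10. In the other 6 comparisons each alternative gave 0. Reversed were Ciita against Ang II after quantile normalization (-0.066) and H2-Ab1 against vehicle relative to the median difference (-0.0072); the cause was not tested. A common array median raised the median difference of all genes from 0.32 to 0.43 against Ang II, from 0.25 to 0.35 against 2-HOBA and from 0.31 to 0.41 against vehicle. Replicate numbers as a block gave 6, 6 and 10 called members in the Hyd/HCTZ comparisons and 0 elsewhere. Correlations of same-numbered arrays ran from -0.35 to 0.37. Differently numbered arrays were not set beside them, so these values do not settle whether the numbers pair the samples. Over all genes, the count called with knockout against wild type went from 1 to 68 for vehicle without the array labelled vehicle replicate 2, and for Ang II from 5 to 27 within array set 1. The Hyd/HCTZ arrays form a set of their own, so no within-set value exists for those comparisons.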
